A study of Mus musculus with 9 samples.

Results

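The 10 genes described here are Atf4, Atf5, Ddit3, Nupr1, Asns, Trib3, Chac1, Ddit4, Sesn2 and Vldlr, a set of transcripts of the amino acid stress response around the transcription factor ATF4. They were taken by symbol from a deposited table of 17769 genes, all 10 were found, and all 10 were among the 13608 genes that passed the filter on low counts. RNA came from MEP, that is megakaryocyte-erythroid progenitors, which were sorted from mouse bone marrow (strain background C57BL/6N) and from which red cells and platelet-forming megakaryocytes arise. The E12 group carried SclCre with a mutation in exon 12 of Jak2 and was sampled 6 weeks after tamoxifen. The VF group carried SclCre with Jak2 V617F and was sampled at 12 weeks. WT, the control group, was also sampled at 12 weeks, and its label names no Cre allele. Tamoxifen was injected into the peritoneum on 5 consecutive days, which activates the recombinase of SclCre, a Cre driven by regulatory sequence of the blood stem cell gene Scl. Each group holds 3 libraries, named here by the numbers in their labels (E12 1, 2 and 5, VF 1, 2 and 3, WT 50, 51 and 52). The labels do not say whether these are separate mice, so the p-values speak only of the variation among these samples, and that variation may be technical. For E12, genotype and time after tamoxifen cannot be told apart.

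ATF4 is the effector of the integrated stress response. Kinases that sense missing amino acids, missing heme, viral RNA or misfolded protein phosphorylate the translation factor eIF2alpha, which lowers general protein synthesis while the Atf4 messenger is translated more, so the amount of ATF4 protein is set largely after transcription. With C/EBP partners ATF4 then switches on genes for amino acid synthesis and uptake, for tRNA charging, and for feedback, growth arrest or death. In red cell precursors the heme-regulated kinase of this pathway, encoded by Eif2ak1, couples globin synthesis to heme supply.

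The 10 genes did not move as a block. Trib3, Chac1, Ddit4, Sesn2 and Vldlr rose in both mutants relative to WT, and 3 of these had no count in any WT library. The WT libraries lacked more genes in general. Of all genes in the table, 27.2% to 30.1% had no count in a WT library. That share was 12.4% to 18.7% in E12 libraries and 10.7% to 12.4% in VF libraries. Atf4, Ddit3 and Asns fell in VF, and Ddit3 fell in E12. In VF against WT 8 of the 10 genes were called, where 48.6% of all tested genes were called, and in E12 against WT 6 of the 10, where 42.0% of all were. In E12 against VF the call was Vldlr alone, lower in E12, where 3.21% of all genes were called. Of all tested genes 2.19% were called higher and 1.02% lower in E12 over VF. Calls are at an adjusted p of 0.05 by edgeR's quasi-likelihood test over all tested genes. Levels are given as CPM, read counts relative to library size after scaling by TMM factors. The factor was 0.456 in WT 50, 0.841 in WT 51 and 0.869 in WT 52. It was 1.09 to 1.19 in E12 libraries and 1.26 to 1.28 in VF libraries. A smaller factor gives higher CPM for the same share of counts, so WT 50 is raised most. Both comparisons with WT use the same WT libraries.

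The E12 libraries held 20328414 to 23499914 counts, the VF libraries 19256431 to 21331168 and the WT libraries 33838681 to 39736096. The WT libraries carry facility numbers of another run of numbers than the mutant ones, so the effect of genotype cannot be told apart from that of library series. Short transcripts weighed more in WT. Of all counts, genes under 1 kb took 6.93% to 8.79% in the E12 libraries, 8.25% to 8.97% in the VF libraries, and 27.9%, 14.1% and 11.2% in WT 50, WT 51 and WT 52. The median of the log2 fold changes over WT, taken across the tested genes, was 0.36 for both E12 and VF, and 0.17 and 0.21 with RLE scaling. Erythroid markers, summed over 15 genes, stood at 9603 to 27448 CPM in E12 libraries, 1306 to 2040 CPM in VF libraries and 24578 to 40642 CPM in WT libraries, with all 15 detected in every library. Megakaryocyte markers, summed over 12 genes, stood at 383 to 473 CPM in E12 libraries, 2035 to 2630 CPM in VF libraries and 62.1 to 183 CPM in WT libraries, where 7 to 9 of the 12 had a count. Stem and multipotent progenitor markers, summed over 11 genes, stood at 598 to 921 CPM in E12 libraries, 1965 to 1976 CPM in VF libraries and 104 to 215 CPM in WT libraries, where 7 or 8 of the 11 had a count. Neutrophil markers, summed over 10 genes, stood at 2048 to 2310 CPM in E12 and 7147 to 13125 CPM in VF libraries. In WT 50, 51 and 52 they stood at 7842, 2149 and 510 CPM. B cell markers, summed over 9 genes, stood at 30.0 to 718 CPM in E12 and 140 to 286 CPM in VF libraries. In WT 50, 51 and 52 they stood at 4688, 967 and 390 CPM. T and NK cell markers, summed over 8 genes, were also highest in WT 50, at 1171 CPM. The groups thus differ in their mix of lineage transcripts, the part of that mix in the differences below was not tested, and in bulk RNA fewer cells of a type cannot be told apart from less RNA per cell. The labelled alleles are not checked by transcript counts.

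The element through which ATF4 and its C/EBP partners act is known as the C/EBP-ATF response element. It was searched as TGATGNAAN on both strands, in RefSeq promoter windows on GRCm38.p6 that run from 250 bases before to 50 bases after each start. All 10 genes had a window, 12 windows in all, and 5 genes held a match. Of all 32851 promoter windows 3.95% held one, and of all 27025 genes 4.5%. A match is a description of letters, and no binding was measured. The 5 sites are shown on the strand of the gene with the match in capitals and 10 bases on either side, because they are the stretches these genes share:
Asns: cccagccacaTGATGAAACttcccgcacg
Chac1: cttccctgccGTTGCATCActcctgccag
Nupr1: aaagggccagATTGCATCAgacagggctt
Trib3: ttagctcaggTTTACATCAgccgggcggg
Vldlr: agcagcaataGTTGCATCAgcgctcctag
Asns carries the element on its own strand, and the other 4 carry it on the opposite strand. The sites are at chr6:7693214-7693242 (minus strand, first base of the match at position -23 from the start) for Asns, chr2:119351038-119351066 (plus strand, -194) for Chac1 and chr7:126625563-126625591 (minus strand, -111) for Nupr1. For Trib3 the site is at chr2:152344029-152344057 (minus strand, position 13 after the start), and for Vldlr at chr19:27216809-27216837 (plus strand, -201 from the second of its listed starts). Chac1 and Vldlr hold the identical 9 letters. The sites of Asns, Nupr1 and Vldlr overlap an exon annotated for the same gene. The windows of Atf4, Atf5, Ddit3, Ddit4 and Sesn2 held no such letters. Of the 5 genes with a match, Trib3, Chac1 and Vldlr were higher in both mutants than in WT, Asns was lower in VF, and Nupr1 was not called in any comparison. Of the 5 without one, Ddit4 and Sesn2 were higher in both mutants and Ddit3 lower in both, Atf4 was lower in VF, and Atf5 was not called.

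The stretch before the start of Chac1, a glutathione-degrading enzyme that ATF4 is known to switch on, is given in full because it holds no annotated exon. It covers 237 bases on the plus strand at chr2:119350992-119351228 and ends 13 bases before the start, with the match in capitals.
Chac1 upstream: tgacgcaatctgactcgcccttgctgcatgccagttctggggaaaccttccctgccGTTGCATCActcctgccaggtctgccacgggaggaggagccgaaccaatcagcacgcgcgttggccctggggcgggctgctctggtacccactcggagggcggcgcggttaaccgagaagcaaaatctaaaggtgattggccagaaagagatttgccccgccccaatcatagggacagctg

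**Figure D1:**
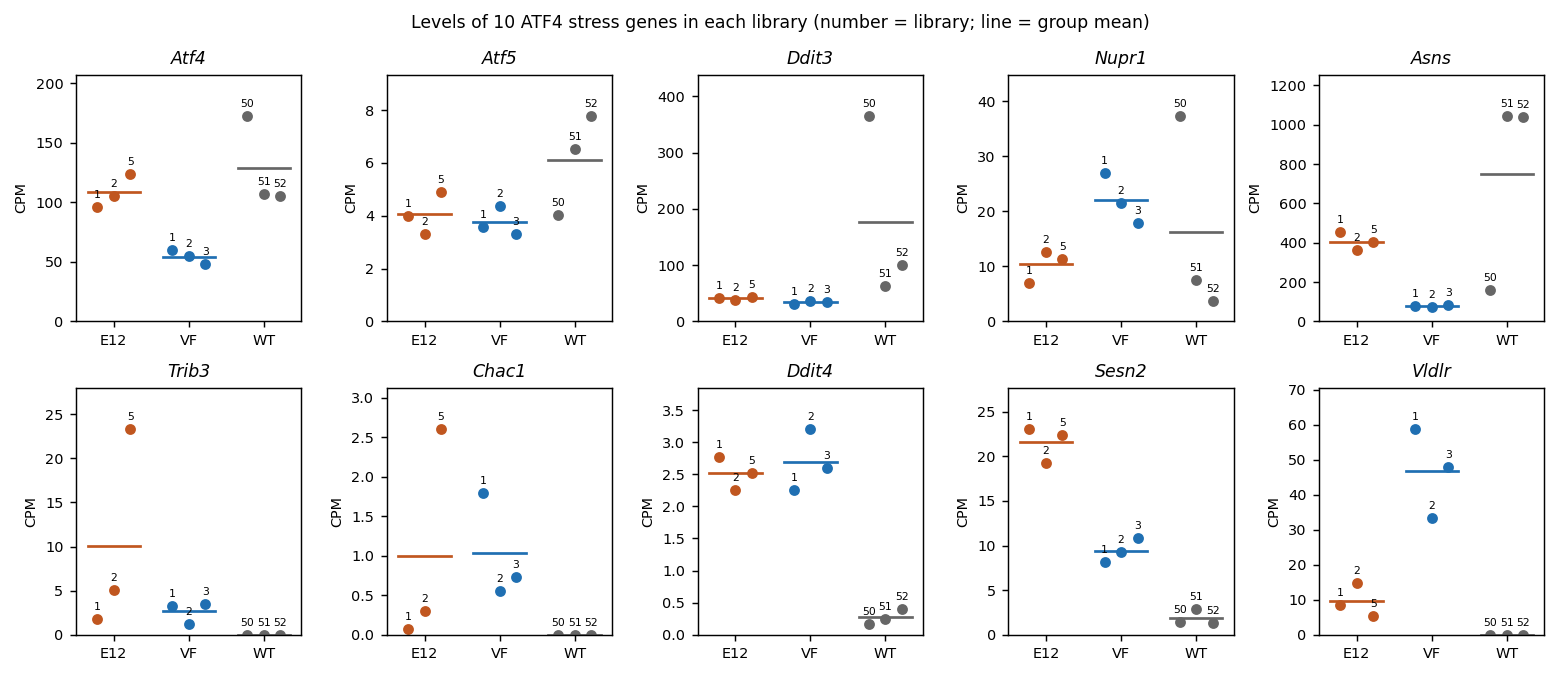
Level of each of the 10 genes in each library, in CPM with TMM scaling (vertical axis), for E12, VF and WT (horizontal axis). Each point is a library with its number, and each line is the mean of 3 libraries. Trib3, Chac1 and Vldlr lie at 0 in every WT library, and WT 50 stands apart from WT 51 and WT 52 in Ddit3, Nupr1 and Asns.

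Atf4 (Entrez gene 11911, chromosome 15, 80255184 to 80257545, GRCm38) is the central factor itself. Its normalised read count was 96.2, 105 and 124 CPM in E12 1, 2 and 5, 60.0, 54.6 and 48.6 CPM in VF 1, 2 and 3, and 173, 107 and 105 CPM in WT 50, 51 and 52. All VF libraries lay below all E12 and WT libraries, while E12 and WT overlapped. Before scaling, WT 50, 51 and 52 held 3126, 3436 and 3099 reads of Atf4, so WT 50 stands highest through its TMM factor. Atf4 averaged 54.4 ± 5.72 CPM in VF and 128 ± 38.3 CPM in WT (SD, n = 3 each), and VF over WT was -1.24 on the log2 scale (SE 0.26, adjusted p = 0.0048 by edgeR). In E12 the mean was 108 ± 13.99 CPM, and the difference from WT was -0.24 on the log2 scale (95% interval -0.82 to 0.33, adjusted p = 0.47 by edgeR). With offsets for gene length the VF difference shrank to -0.54 (adjusted p = 0.0439 by edgeR), still called. With offsets for both length and GC content the VF difference was -0.49, with an adjusted p of 0.081 by edgeR.

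Ddit3 (Entrez gene 13198, chromosome 10, 127290793 to 127296291), better known as CHOP, is the stress factor that ATF4 induces when stress lasts. It stood at 42.3, 38.6 and 43.1 CPM in E12 1, 2 and 5, at 30.5, 36.4 and 34.3 CPM in VF 1, 2 and 3, and at 366, 62.3 and 100 CPM in WT 50, 51 and 52. The 6 mutant libraries were close to each other and all below the 3 WT libraries, of which WT 50 was far the highest. The log2 fold change was -2.09 in E12 over WT (SE 0.57, adjusted p = 0.0173 by edgeR) and -2.38 in VF over WT (SE 0.57, adjusted p = 0.0087 by edgeR). Without WT 50 these became -1.08 and -1.37, both still called. Ddit3 is short, at 871 bases as deposited, and the median gene under 1 kb differed by -1.84 in E12 over WT and -1.77 in VF over WT. With offsets for gene length both calls ended, at -0.12 in E12 (adjusted p = 0.81 by edgeR) and -0.43 in VF (adjusted p = 0.295 by edgeR). The E12 call also ended when any 1 of the E12 libraries was left out, with adjusted p from 0.0559 to 0.0652 by edgeR. The exons of Ddit3 share 68 bases with Mars and 13 bases with Gm4189 on the other strand, and reads there cannot be told apart without strand.

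Atf5 (Entrez gene 107503, chromosome 7, 44812256 to 44816658), a relative of ATF4 linked to stress of mitochondria, was low everywhere. It stood at 3.98, 3.31 and 4.91 CPM in E12 1, 2 and 5, at 3.56, 4.36 and 3.33 CPM in VF 1, 2 and 3, and at 4.03, 6.51 and 7.79 CPM in WT 50, 51 and 52. The ranges of all 3 groups overlapped through WT 50. No comparison passed, with log2 differences of -0.59 in E12 over WT and -0.70 in VF over WT (adjusted p = 0.31 and 0.22 by edgeR). Without WT 50 the VF difference was -1.05 with an adjusted p of 0.0287 by edgeR. Other tools called Atf5 lower in both mutants. DESeq2 gave -0.77 in E12 and -0.85 in VF over WT (adjusted p = 0.0336 and 0.017), and limma on the deposited levels gave -1.33 and -1.97 (adjusted p = 0.0348 and 0.0047). The exons of Atf5 share 82 bases with each of Il4i1 and Nup62.

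Nupr1 (Entrez gene 56312, chromosome 7, 126623246 to 126625470) encodes a small nuclear protein induced by many stresses. It stood at 7.03, 12.7 and 11.4 CPM in E12 1, 2 and 5, at 26.9, 21.5 and 17.8 CPM in VF 1, 2 and 3, and at 37.4, 7.47 and 3.74 CPM in WT 50, 51 and 52. The WT libraries span both mutant groups, with WT 50 above every other library, while all E12 libraries lay below all VF libraries. No comparison passed the test, and its result turned on WT 50 and on gene length. Without WT 50, VF was higher than WT by 1.81 on the log2 scale (adjusted p = 0.0071 by edgeR). At 626 bases Nupr1 is the shortest of the 10, and with length offsets it was called higher in E12 over WT, by 1.84 (adjusted p = 0.0102 by edgeR), and in VF over WT, by 2.90 (adjusted p = 0.000957 by edgeR).

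Asns (Entrez gene 27053, chromosome 6, 7675165 to 7693209), the enzyme that makes asparagine from aspartate and glutamine, had the highest mean level of the 10 per length in each group. It stood at 454, 361 and 404 CPM in E12 1, 2 and 5, at 80.2, 73.2 and 82.0 CPM in VF 1, 2 and 3, and at 160, 1046 and 1039 CPM in WT 50, 51 and 52. All VF libraries lay below every other library, and the E12 libraries lay between WT 50 and the other two WT libraries. The log2 fold change in VF over WT was -3.25 (SE 0.61, adjusted p = 0.0031 by edgeR). In E12 over WT it was -0.88 (95% interval -2.16 to 0.39, adjusted p = 0.235 by edgeR), and -1.49 without WT 50, then with an adjusted p of 0.000128 by edgeR. E12 exceeded VF by 2.37 on the log2 scale, with the groups apart and an adjusted p of 0.0665 by edgeR in the fit of all 9 libraries. In a fit of the 6 mutant libraries alone that adjusted p was 1.58e-05 by edgeR.

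Trib3 (Entrez gene 228775, chromosome 2, 152337425 to 152344060) is a pseudokinase that ATF4 and CHOP induce and that in turn restrains them. It stood at 1.80, 5.10 and 23.3 CPM in E12 1, 2 and 5, at 3.30, 1.27 and 3.49 CPM in VF 1, 2 and 3, and had no count in WT 50, 51 or 52. It was detected in every mutant library, and E12 5 was far above the rest. Against 3 counts over the WT group, Trib3 was at least 267-fold higher in E12 (adjusted p = 0.0039 by edgeR) and at least 71.3-fold higher in VF (adjusted p = 0.0045 by edgeR). Without E12 5 the bound for E12 was 91.6-fold. E12 and VF did not differ beyond their spread (log2 fold change 1.91, 95% interval -0.41 to 4.22, adjusted p = 0.384 by edgeR), and without E12 5 the difference was 0.36.

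Chac1 (Entrez gene 69065, chromosome 2, 119351242 to 119354326) was also without WT counts, at lower levels in the mutants. It stood at 0.0781, 0.305 and 2.61 CPM in E12 1, 2 and 5, which are 2, 8 and 60 reads. In VF 1, 2 and 3 it stood at 1.80, 0.559 and 0.730 CPM, which are 48, 15 and 18 reads, and it had no count in WT. E12 5 was again the highest library, with E12 1 and E12 2 below all VF libraries. Chac1 was at least 26.4-fold higher in E12 than in WT (adjusted p = 0.0192 by edgeR) and at least 27.3-fold higher in VF than in WT (adjusted p = 0.0158 by edgeR). Without E12 5 the bound for E12 was 5.08-fold, and without VF 1 that for VF was 17.1-fold. On the deposited levels limma did not call E12 over WT (3.14 on the log2 scale, adjusted p = 0.0586). The difference between E12 and VF was -0.05 on the log2 scale, with a 95% interval from -3.03 to 2.93.

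E12 5, the library highest in Trib3 and Chac1, was also the E12 library with the most erythroid marker signal, 27448 CPM against 13605 and 9603 CPM in E12 1 and E12 2. Hemoglobin transcripts took 3.37% of its counts, against 0.104% and 0.0786% in E12 1 and E12 2. The WT libraries, which had no Trib3 or Chac1 count, had 24578 to 40642 CPM of erythroid markers and 0.173% to 0.325% hemoglobin. E12 5 also had the most B cell marker signal of the E12 libraries, 718 CPM against 64.1 and 30.0 CPM in E12 1 and E12 2. The WT libraries had 390 to 4688 CPM of B cell markers. The part of the erythroid or B cell transcripts in the Trib3 and Chac1 levels was not tested.

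Ddit4 and Sesn2 both encode inhibitors of mTORC1, the kinase complex that matches growth to amino acid supply. Ddit4 (Entrez gene 74747, chromosome 10, 59949675 to 59951770), also called REDD1, stood at 2.77, 2.25 and 2.52 CPM in E12 1, 2 and 5, at 2.25, 3.21 and 2.60 CPM in VF 1, 2 and 3, and at 0.166, 0.249 and 0.408 CPM in WT 50, 51 and 52. All mutant libraries lay above all WT libraries, and the mutant groups overlapped. The log2 fold change was 3.16 in E12 over WT (SE 0.62, adjusted p = 0.0056 by edgeR) and 3.25 in VF over WT (SE 0.63, adjusted p = 0.0034 by edgeR). On the authors' deposited log2 levels these differences were 1.44 and 0.91, and limma did not call them (adjusted p = 0.0615 and 0.197). E12 and VF differed by -0.09 with a 95% interval from -1.37 to 1.18.

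Sesn2 (Entrez gene 230784, chromosome 4, 132492804 to 132510456) encodes a leucine-binding sestrin. It stood at 23.1, 19.3 and 22.4 CPM in E12 1, 2 and 5, at 8.18, 9.32 and 10.8 CPM in VF 1, 2 and 3, and at 1.38, 2.90 and 1.33 CPM in WT 50, 51 and 52. The 3 groups did not overlap, with E12 the highest and WT the lowest. Sesn2 averaged 21.6 ± 2.02 CPM in E12, 9.44 ± 1.33 CPM in VF and 1.87 ± 0.89 CPM in WT. The log2 fold change was 3.52 in E12 over WT (SE 0.43, adjusted p = 0.000988 by edgeR) and 2.33 in VF over WT (SE 0.41, adjusted p = 0.0022 by edgeR). Both calls held in every alternative that was run, the length offsets and the omission of any 1 library included. E12 exceeded VF by 1.19 (SE 0.39), which missed the threshold in the fit of all 9 libraries (adjusted p = 0.141 by edgeR) and passed with the mutant libraries alone (adjusted p = 0.000585 by edgeR).

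Vldlr (Entrez gene 22359, chromosome 19, 27216480 to 27254231) encodes a lipoprotein receptor that ATF4 has been described to raise under stress in liver cells. It stood at 8.63, 14.7 and 5.34 CPM in E12 1, 2 and 5, at 58.8, 33.4 and 47.9 CPM in VF 1, 2 and 3, and had no count in WT. All VF libraries lay above all E12 libraries, the reverse of Asns and Sesn2. Against 3 counts over the WT group Vldlr was at least 254-fold higher in E12 (adjusted p = 0.000655 by edgeR) and at least 1240-fold higher in VF (adjusted p = 0.000178 by edgeR). The log2 fold change in E12 over VF was -2.29 (SE 0.47, adjusted p = 0.0498 by edgeR). That call ended when any 1 of the 6 mutant libraries was left out, with log2 fold changes from -2.74 to -2.00 and adjusted p from 0.0828 to 0.233 by edgeR. It ended too without the filter on low counts, at an adjusted p of 0.0518 by edgeR. At 8308 bases Vldlr is the longest of the 10, and the median gene over 5 kb was higher by 1.11 in E12 over WT and by 1.22 in VF over WT. Vldlr ran with the megakaryocyte and stem markers in being highest in VF, intermediate in E12 and lowest in WT, and the part of those lineages in its level was not tested.

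**Figure D2:**
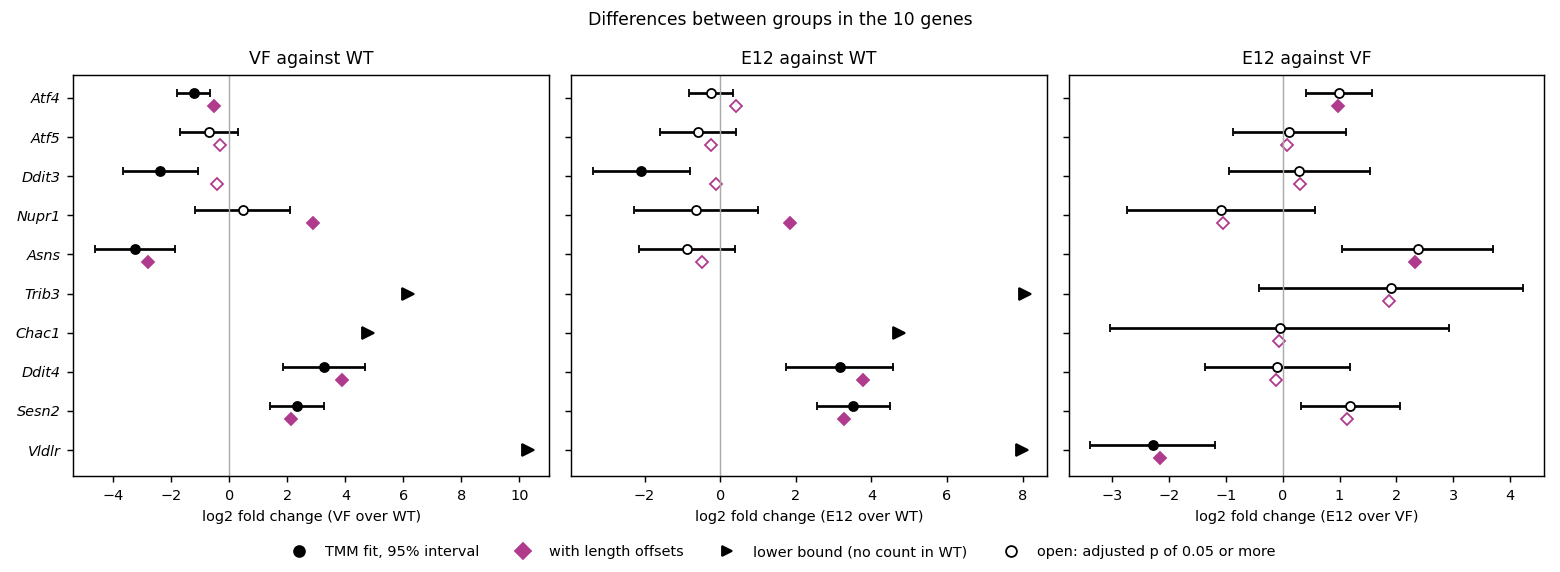
Log2 fold change of each of the 10 genes (rows) in VF over WT, E12 over WT and E12 over VF (panels). Circles are the edgeR fit with TMM scaling and bars its 95% interval, diamonds the fit with length offsets, triangles lower bounds for genes with no count in WT, and open symbols an adjusted p of 0.05 or more. Ddit3 and Nupr1 shift most with the length offsets over WT, and Sesn2 stays called in both mutants.

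Set beside the background, the 10 genes in VF over WT held 5 called higher and 3 called lower, where 27.7% of tested genes were higher and 20.9% lower. Their median log2 fold change was 1.39, with lower bounds in place of the fitted values of genes absent from WT as well, against 0.36 over all tested genes. In E12 over WT, 5 were called higher and 1 lower, where 23.9% and 18.1% of tested genes were called, and the median was 1.46 against 0.36. Both medians fall in a gap between genes. In E12 the gap runs from Atf4 at -0.24 to Ddit4 at 3.16. In VF it runs from Nupr1 at 0.45 to Sesn2 at 2.33. Trib3, Chac1 and Vldlr, above the gap in both, had no WT count and passed the filter through the mutant libraries alone. Over WT they could only be called higher, so the counts and medians are a description and no support for a shift of the 10 genes. On the deposited levels the medians were 0.88 in E12 and 0.59 in VF over WT, against 0.20 and 0.16 over all tested genes. With the 2 groups alone, where 9 of the genes were tested, the E12 median was -0.24 against 0.29. Groups did not overlap in 8 of the 10 genes in VF against WT, where 62.7% of all tested genes did not overlap, and in 6 of the 10 in E12 against WT, where 53.3% did not. For a single gene the smallest p that an exact permutation of 3 against 3 libraries allows is 0.1.

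**Figure D3:**
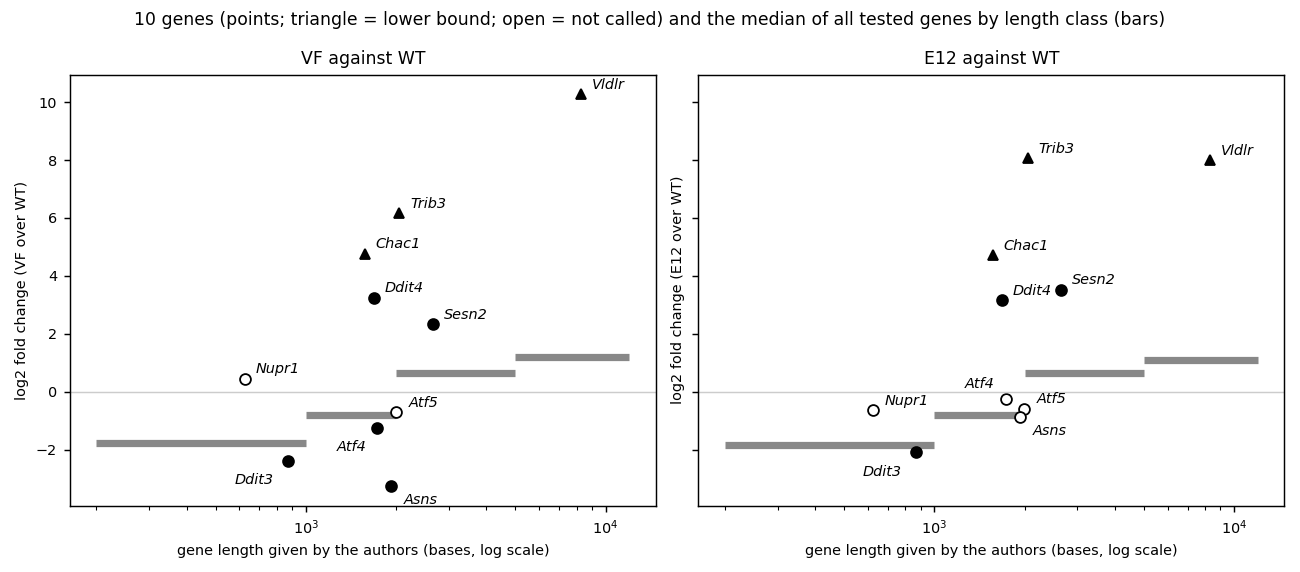
Log2 fold change over WT (vertical axis) against the gene length the authors deposited (horizontal axis, log scale) for VF and E12. Points are the 10 genes, triangles lower bounds, open points genes not called, and grey bars the median of all tested genes in 4 length classes, the outer 2 of which have no outer limit. In VF the class medians climb from -1.77 under 1 kb to 1.22 over 5 kb, and Ddit3 lies near the bar of its class.

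Most of the 10 genes lie between 1 and 3 kb. In the class from 1 to 2 kb, which holds Atf4, Atf5, Asns, Ddit4 and Chac1, the median gene differed by -0.80 in E12 over WT and -0.79 in VF over WT. Atf5 in both mutants and Asns in E12 lay close to that median. Asns in VF lay well below it, and Ddit4 and Chac1 well above. Atf4 lay below that median in VF, at -1.24, and above it in E12, at -0.24. In the class from 2 to 5 kb, which holds Trib3 and Sesn2, the median was 0.64 in E12 over WT and 0.63 in VF over WT, under the differences of both genes.

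E12 against VF, 2 groups whose libraries share their run of facility numbers, gave a different order of the genes. The groups did not overlap in 6 of the 10 genes, where 59.5% of all tested genes did not overlap. Atf4, Ddit3, Asns and Sesn2 were higher in every E12 library, and Nupr1 and Vldlr were higher in every VF library. With all 9 libraries in 1 fit, the spread of the WT libraries entered the test and Vldlr alone was called. In a fit of the 6 mutant libraries alone, 48.0% of genes were called and 6 of the 10 were among them, the same 6 whose libraries did not overlap. In that fit Atf4 was higher in E12 by 1.03 (adjusted p = 0.000458 by edgeR), Ddit3 by 0.33 (adjusted p = 0.0438) and Sesn2 by 1.22, while Nupr1 fell by 1.05 on the log2 scale (adjusted p = 0.0111) and Vldlr fell by 2.25 (adjusted p = 0.0014). Atf5, Ddit4, Trib3 and Chac1 overlapped and were not called in either fit.

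Levels of different genes were compared per kilobase of length, as CPM per kb. In E12 the order ran from Asns at 211 ± 24.0 through Atf4 at 62.7 ± 8.09, Ddit3 at 47.5 ± 2.77 and Nupr1 at 16.6 ± 4.74 to Sesn2 at 8.12 ± 0.76, and each of these lay apart from its neighbour. Below them Trib3 at 4.91 ± 5.65 overlapped with Sesn2 and with Atf5, and Ddit4, Vldlr and Chac1 came last. In VF the top 4 genes overlapped, with Asns at 40.7 ± 2.43, Ddit3 at 38.7 ± 3.40, Nupr1 at 35.3 ± 7.33 and Atf4 at 31.5 ± 3.31 CPM per kb. In WT Asns at 388 ± 265 overlapped with Ddit3 at 202 ± 190, and Atf4 at 74.2 ± 22.2 overlapped with Ddit3. Vldlr stood at 1.15 ± 0.57 CPM per kb in E12, where it overlapped with Ddit4, and at 5.62 ± 1.53 CPM per kb in VF, next after the top 4, and had no count in WT.

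Across the 9 libraries the genes formed no single pattern. Pearson correlations of log2(CPM + 1) are given as a description, since the points share group, depth and length bias. Atf4 correlated at 0.735 with Ddit3 and 0.614 with Asns, at -0.159 with Trib3 and -0.329 with Chac1, and at -0.821 with Vldlr. Trib3 correlated at 0.842 with Chac1 and 0.823 with Sesn2, and Ddit4 at 0.893 with Sesn2 and 0.89 with Vldlr. Asns and Nupr1 ran opposite to each other at -0.851. The tested genes most like Atf4 by this measure were Mc1r (0.983), Arhgdig (0.981), Fam166a (0.973), Ggact (0.972) and Cdc34 (0.972). All 5 had their lowest mean in VF and their highest in WT, with 2.17, 0.177 and 3.40 CPM of Mc1r and 37.9, 15.6 and 49.2 CPM of Cdc34 in E12, VF and WT. Atf4 has the same order, so it follows from the choice by correlation. WT 50 was the highest library in all 5, and all but Mc1r are short, at 1032 to 1266 bases.

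Other genes of the pathway were counted in 7 lists made from textbook knowledge. The first holds the machinery upstream of ATF4, the eIF2alpha kinases, the phosphatase subunits and the exchange factor eIF2B. Of 14 tested genes, 6 rose and 4 fell in E12 over WT, where 23.9% of all tested genes rose and 18.1% fell. In VF over WT 4 rose and 5 fell, where 27.7% and 20.9% of all did. With length offsets 4 rose and 5 fell in E12 over WT, where 17.3% of tested genes rose and 11.0% fell, and 1 rose and 6 fell in VF over WT, where 23.7% rose and 17.7% fell. Of the 5 subunits of eIF2B, Eif2b1, Eif2b2, Eif2b3 and Eif2b4 fell in both mutants and Eif2b5 rose in E12 over WT (log2 fold change 0.97, adjusted p = 0.0285 by edgeR). Limma on the log2 levels the authors deposited did not call Eif2b1 and Eif2b4 in E12 over WT (-0.16 and -0.43, adjusted p = 0.574 and 0.116). Eif2b3 averaged 106 ± 14.2 CPM in E12, 52.6 ± 3.67 CPM in VF and 306 ± 30.0 CPM in WT, with log2 fold changes of -1.53 in E12 over WT and -2.54 in VF over WT (adjusted p = 0.0018 and 0.000178 by edgeR). Eif2b4 averaged 139 ± 20.6 CPM in E12, 73.3 ± 3.84 CPM in VF and 286 ± 20.6 CPM in WT. Gcn1l1, a partner that activates the amino acid sensing kinase encoded by Eif2ak4, rose in E12 over WT by 1.74 (SE 0.22, adjusted p = 0.0011 by edgeR), and by 0.89 with length offsets. In VF over WT Gcn1l1, which is 8546 bases long, was called higher by 0.61 (adjusted p = 0.039 by edgeR), was -0.39 with length offsets (adjusted p = 0.0909 by edgeR) and was called lower with length and GC offsets (-0.65, adjusted p = 0.0192 by edgeR). Impact, which competes for that partner, rose in VF over WT by 2.59 (SE 0.28, adjusted p = 0.00033 by edgeR), and Eif2ak4 itself was called higher in both mutants, calls that ended with length offsets (log2 fold changes 0.20 and 0.082, adjusted p = 0.564 and 0.809 by edgeR). Ppp1r15b, a phosphatase subunit that reverses eIF2alpha phosphorylation, averaged 164 ± 23.1 CPM in E12, 91.8 ± 3.84 CPM in VF and 48.0 ± 12.5 CPM in WT and was called higher in both mutants, in VF not with length offsets (0.079, adjusted p = 0.749 by edgeR). In E12 against VF 3 of the 14 were called, all higher in E12, where 2.19% of all tested genes were called higher. They were Gcn1l1 by 1.13, Eif2b1 by 1.17 and Eif2b3 by 1.01 (adjusted p = 0.0286, 0.0425 and 0.0425 by edgeR). Each of these 3 calls ended when any 1 of the 6 mutant libraries was left out, with adjusted p from 0.0901 to 0.249 by edgeR, that of Eif2b1 also without WT 51 (adjusted p = 0.0512 by edgeR), and those of Eif2b1 and Eif2b3 with RLE scaling (adjusted p = 0.0686 and 0.0715 by edgeR). The list's median was 0.60 in E12 over WT, -0.28 in VF over WT and 0.88 in E12 over VF, against 0.36, 0.36 and -0.05 over all tested genes, and on the deposited levels that in VF over WT was 0.035.

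Among 8 tested transcription factors that pair with ATF4 or act in neighbouring stress pathways, 4 rose and none fell in E12 over WT (23.9% and 18.1% of all tested genes), and 5 rose and 1 fell in VF over WT (27.7% and 20.9% of all). Atf6, the membrane-bound factor of the unfolded protein response, averaged 33.3 ± 4.14 CPM in E12, 32.7 ± 3.39 CPM in VF and 12.3 ± 4.001 CPM in WT (log2 fold changes 1.44 and 1.42 for E12 and VF over WT, adjusted p = 0.0059 and 0.0043 by edgeR). Atf6 is 7463 bases long, and with length offsets the differences were 0.59 and 0.44 and not called (adjusted p = 0.15 and 0.244 by edgeR). Atf3 was scarce, at 0.708 ± 0.36 CPM in E12 and 0.130 ± 0.066 CPM in VF, with none in WT, and it was at least 18.8-fold higher in E12 and at least 3.45-fold higher in VF than in WT, the VF call ending without VF 3 (adjusted p = 0.0588 by edgeR). Cebpb rose in E12 over WT (log2 fold change 3.73, adjusted p = 0.0415 by edgeR), a call that ended with RLE scaling (adjusted p = 0.064 by edgeR) and without any 1 library other than WT 50 and WT 52 (adjusted p from 0.0548 to 0.128 by edgeR). Nfe2l2, the oxidative stress factor, fell in VF over WT by 1.17 on the log2 scale (adjusted p = 0.0117 by edgeR), a difference that limma did not call on the log2 levels the authors deposited (-0.57, adjusted p = 0.102). The same holds for Atf3 in VF over WT (0.65, adjusted p = 0.528 by limma). The list's median was 2.23 in E12 over WT and 2.26 in VF over WT, which is 1.60 with lower bounds for genes absent from WT, against 0.36 over all tested genes. In E12 against VF edgeR called no member. DESeq2 called 1, higher in E12, where it called 6.32% of all tested genes higher. An unadjusted p under 0.05 by edgeR was found for 3, and the share over all tested genes at that level is not given.

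Of 6 tested paralogs of the 10 genes, Sesn1 and Sesn3 rose and Chac2 fell in both mutants over WT. For comparison, 23.9% of all tested genes rose and 18.1% fell in E12 over WT, and 27.7% and 20.9% in VF over WT. Sesn1, a sestrin like Sesn2, averaged 66.4 ± 2.02 CPM in E12, 96.2 ± 5.97 CPM in VF and 30.4 ± 14.3 CPM in WT, with log2 fold changes of 1.13 in E12 over WT and 1.66 in VF over WT (adjusted p = 0.0212 and 0.0037 by edgeR). Sesn3, absent from the WT libraries, was at least 20.5-fold higher in E12 and at least 69.3-fold higher in VF than in WT. The Sesn1 call in E12 ended without any 1 of the E12 libraries (adjusted p from 0.0523 to 0.0631 by edgeR) and with the 2 groups alone (0.0729). Chac2, which degrades glutathione slowly where CHAC1 does so fast, averaged 16.3 ± 7.80 CPM in E12, 7.29 ± 0.455 CPM in VF and 34.4 ± 10.02 CPM in WT, where Chac1 had no count. With length offsets the Chac2 difference in E12 over WT was 0.066 and the call ended (adjusted p = 0.906 by edgeR), while that in VF was -1.08 (adjusted p = 0.032 by edgeR). The Chac2 call in E12 ended also with the 2 groups alone, without any 1 VF library, and without E12 1, E12 2 or WT 50 (adjusted p from 0.0527 to 0.154 by edgeR). The list's median was 1.01 in E12 over WT and 1.23 in VF over WT, against 0.36 over all tested genes.

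**Figure D4:**
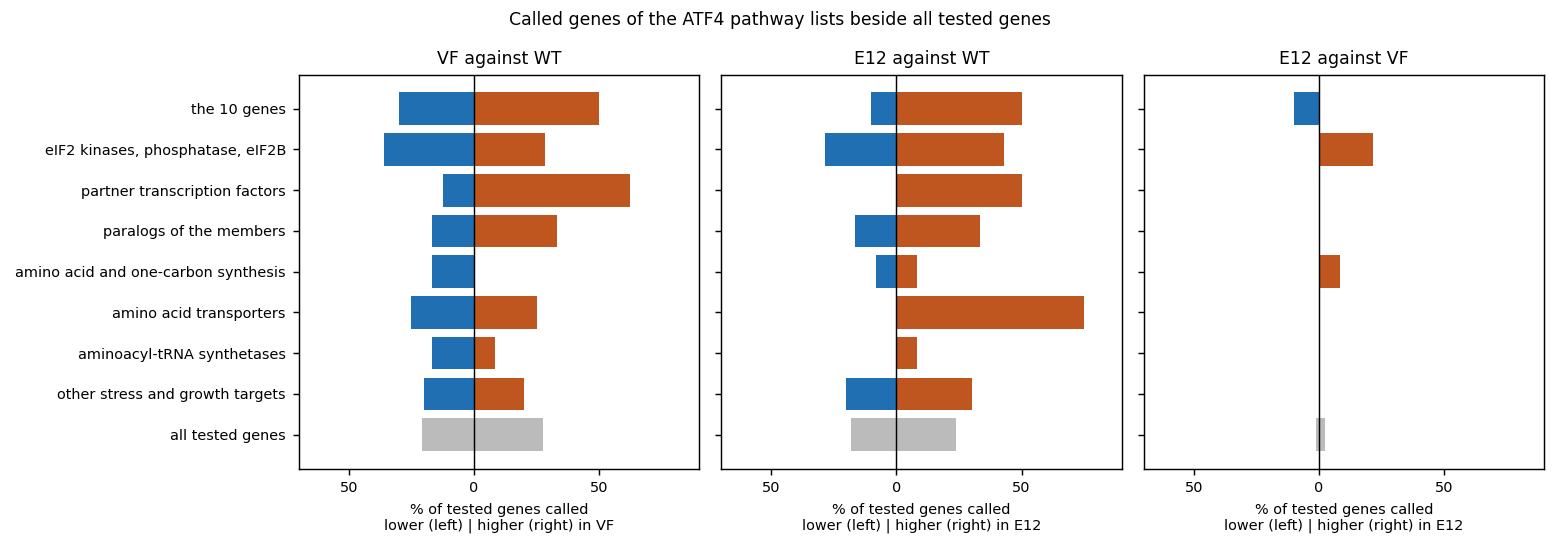
Percentage of tested genes called lower (left of 0) and higher (right of 0) in each list (rows) for VF over WT, E12 over WT and E12 over VF (panels), with all tested genes in grey. Amino acid transporters show 6 of 8 genes higher and none lower in E12 over WT, and the lists of synthesis enzymes and synthetases show at most 3 calls in a panel. With length offsets, not drawn, 4 transporters were higher and 2 lower, where 17.3% and 11.0% of all tested genes were.

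Of 12 tested genes for the synthesis of serine, proline and cysteine and for mitochondrial one-carbon metabolism, 1 rose and 1 fell in E12 over WT, and 2 fell in VF over WT. Among all tested genes 23.9% rose and 18.1% fell in E12 over WT, and 27.7% and 20.9% in VF over WT. The counts of this list depend on the processing. On the deposited levels limma called 6 higher and 1 lower in E12 over WT, where 21.1% of all tested genes were called higher and 20.5% lower. Without WT 50 and E12 5, edgeR called 6 lower in VF over WT and none higher, where 26.6% of all were called lower and 33.0% higher. Mthfd2, the mitochondrial folate enzyme, stood at 159, 129 and 154 CPM in E12 1, 2 and 5, at 37.4, 34.96 and 35.2 CPM in VF 1, 2 and 3, and at 58.1, 88.1 and 85.4 CPM in WT 50, 51 and 52. The 3 groups did not overlap, and WT lay in the middle. Mthfd2 rose in E12 over WT by 0.93 (SE 0.23, adjusted p = 0.0113 by edgeR), fell in VF over WT by 1.11 on the log2 scale (SE 0.23, adjusted p = 0.0046 by edgeR), and was higher in E12 than in VF by 2.04 (SE 0.23, adjusted p = 0.0046 by edgeR). The E12 call over WT ended with only those 2 groups in the fit (adjusted p = 0.0595 by edgeR), and the call over VF without VF 3 (adjusted p = 0.0588 by edgeR). Psph, the last enzyme of serine synthesis, averaged 48.4 ± 4.33 CPM in E12, 38.8 ± 0.704 CPM in VF and 117 ± 87.1 CPM in WT and was called lower in both mutants, with WT 50 at 218 CPM and the other two WT libraries at 66.7 and 67.3 CPM. Both Psph calls ended with length offsets (adjusted p = 0.545 in E12 and 0.157 in VF by edgeR), and each ended without any 1 library of its mutant group (adjusted p by edgeR from 0.0942 to 0.125 for E12, and for VF from 0.051 to 0.0535). The E12 call ended also without any 1 VF library (adjusted p from 0.067 to 0.0672 by edgeR). The list's median was 0.35 in E12 over WT and -0.43 in VF over WT, against 0.36 over all tested genes.

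Of 8 tested amino acid transporters, 6 rose and none fell in E12 over WT, where 23.9% of all tested genes rose and 18.1% fell. In VF over WT 2 rose and 2 fell, where 27.7% and 20.9% of all did, so that the VF counts lie near the background. With length offsets 4 rose and 2 fell in E12 over WT, where 17.3% and 11.0% of all tested genes did. The 2 were Slc7a11 and Slc3a2, and the Slc7a1 call ended (0.45, adjusted p = 0.199 by edgeR). With RLE scaling 4 rose and 1 fell in E12 over WT, where 2912 and 2846 of 13608 genes did. With DESeq2 5 rose and 1 fell, where 3601 and 3341 of 13608 did. Slc7a11 was the gene that fell in both. Slc38a2, the neutral amino acid carrier that ATF4 raises on starvation, averaged 158 ± 25.7 CPM in E12, 160 ± 8.77 CPM in VF and 55.2 ± 6.27 CPM in WT, with log2 fold changes of 1.52 and 1.53 (adjusted p = 0.0019 and 0.000973 by edgeR), and 0.74 and 0.73 with length offsets, still called. Slc6a9, the glycine carrier that red cell precursors need for heme, stood at 4.96, 5.71 and 23.5 CPM in E12 1, 2 and 5, at 1.43, 1.12 and 1.26 CPM in VF 1, 2 and 3, and at 0.497, 0.0623 and 0.238 CPM in WT 50, 51 and 52. It was highest in E12 5, as Trib3 and Chac1 were, and without E12 5 its E12 mean was 5.34 in place of 11.4 CPM. Slc7a11, the cystine carrier, fell in VF over WT by 1.29 on the log2 scale (SE 0.23, adjusted p = 0.0022 by edgeR) and stood at -2.31 with length offsets. By edgeR no transporter was called in E12 against VF. DESeq2 called 3, all higher in E12, where it called 6.32% of all tested genes higher. An unadjusted p under 0.05 by edgeR was found for 4, and the share over all tested genes at that level is not given. Whether the 2 mutants differ in their effect over the list was not tested. The list's median was 1.09 in E12 over WT and 0.74 in VF over WT, against 0.36 over all tested genes for both, and on the deposited levels 1.12 and 0.085.

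Of 12 aminoacyl-tRNA synthetases, enzymes that load amino acids onto tRNAs, Iars alone rose in both mutants, with log2 fold changes of 1.81 in E12 over WT and 1.04 in VF over WT (adjusted p = 0.0012 and 0.0054 by edgeR). Sars and Cars fell in VF over WT by 1.26 and 1.05 on the log2 scale (adjusted p = 0.0079 and 0.0248 by edgeR). Limma did not call Sars on the log2 levels the authors deposited (-0.61, adjusted p = 0.0849). The Iars call in VF ended with length offsets (0.28, adjusted p = 0.287 by edgeR), and the Cars call without any 1 VF library (adjusted p from 0.0751 to 0.0835 by edgeR). The list's median was 0.34 in E12 over WT and -0.72 in VF over WT, against 0.36 over all tested genes for both. On the deposited levels limma called 7 higher and none lower in E12 over WT, with a median of 1.09. Of all tested genes it called 21.1% higher and 20.5% lower there, with a median of 0.20. In VF over WT it called 2 higher and 1 lower, with a median of 0.35. Of all tested genes 25.5% were called higher and 24.3% lower in VF, with a median of 0.16. Without WT 50 and E12 5, 1 was called higher and 8 lower in VF over WT, where 33.0% and 26.6% of all were. With length offsets 1 synthetase rose and 2 fell in E12 over WT, where 17.3% and 11.0% of all did. In VF over WT none rose and 4 fell, where 23.7% and 17.7% of all did. Of 10 other stress and growth targets, 3 rose and 2 fell in E12 over WT, and 2 rose and 2 fell in VF over WT. These counts lie near the shares of all tested genes, 23.9% and 18.1% in E12, and 27.7% and 20.9% in VF. Eif4ebp1, a brake on translation downstream of mTORC1, averaged 168 ± 25.0 CPM in E12, 130 ± 8.44 CPM in VF and 1228 ± 986 CPM in WT, with WT 50 at 2363 CPM, and fell in both mutants (log2 fold changes -2.87 and -3.23, adjusted p = 0.0042 and 0.0017 by edgeR). It is 981 bases long, and with length offsets the differences shrank to -1.05 in E12 and -1.43 in VF over WT, both still called (adjusted p = 0.005 and 0.000681 by edgeR). Without WT 50 they were -2.12 and -2.48. Stc2, a secreted stress glycoprotein without WT counts, was at least 13.8-fold higher in E12 and at least 4.41-fold higher in VF. It averaged 0.521 ± 0.064 CPM in E12 and 0.166 ± 0.093 CPM in VF, and on the deposited levels limma did not call VF over WT (0.92 on the log2 scale, adjusted p = 0.314). Map1lc3b, a protein of the autophagosome membrane, fell by 1.71 in E12 and by 0.85 in VF over WT on the log2 scale (adjusted p = 0.0019 and 0.0179 by edgeR). The direction in VF turned on the deposited levels and with length and GC offsets, to 0.46 and 0.029, and the call ended without any 1 VF library (adjusted p from 0.066 to 0.0739 by edgeR).

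Between the mutants, all 12 synthetases stood higher in every E12 library than in every VF library, while of all tested genes 59.5% did not overlap, counted in either direction. Aars, which charges the tRNA of alanine, stood at 235, 237 and 236 CPM in E12 1, 2 and 5, at 90.3, 104 and 98.3 CPM in VF 1, 2 and 3, and at 66.2, 90.4 and 224 CPM in WT 50, 51 and 52, so that the WT libraries covered the space between the mutants. Gars, which charges the tRNA of glycine, stood at 388, 391 and 340 CPM in E12 1, 2 and 5, at 167, 168 and 161 CPM in VF 1, 2 and 3, and at 145, 225 and 429 CPM in WT 50, 51 and 52. With all 9 libraries in the fit edgeR called no synthetase in E12 against VF (adjusted p = 0.136 for Aars and 0.13 for Gars). An unadjusted p under 0.05 was found for 7, a count for which the share over all tested genes is not given. DESeq2 called 6 (6.32% of all genes called higher), limma-voom called none and limma on the deposited levels called 3 (7.15% of all genes called higher), all of these higher in E12. With length offsets 6 were called, all higher in E12, where 4.88% of tested genes were higher and 2.92% lower, Aars among them at 1.26 (SE 0.28, adjusted p = 0.0303 by edgeR). In the fit of the 6 mutant libraries alone all 12 were called higher in E12, where 25.4% of tested genes were higher and 22.6% lower. In that fit 9 of the 12 enzymes of serine, proline, cysteine and one-carbon metabolism were higher and 1 lower in E12, and 6 of the 8 transporters were higher and none lower. Medians of E12 over VF were 0.79 for the synthetases, 0.81 for the synthesis enzymes and 0.71 for the transporters, against -0.05 over all tested genes, and 0.21 for the 10 genes themselves. The E12 libraries also held more erythroid transcripts than the VF libraries, with 13 of 15 erythroid markers called higher in E12 over VF, and the part of that difference in these enzymes was not tested.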

How the data were processed

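The authors deposited whole-number counts per gene with an Entrez identifier, a symbol and a length for each gene, and expression levels on a log2 scale. Per the labels, a PicoPure kit was used for RNA and SmartSeq 2 for the libraries, a method which keeps no strand and no molecular identifiers. The submitters' processing notes name STAR, limma, GRCm38 and mm10, without versions, and for the counting tool the sources used here give no name. The log2 levels that the authors deposited served as an alternative.

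The 10 genes and all lists were chosen with earlier results of these data known. With edgeR 4.0.16 in R 4.3.3, the deposited counts were filtered by filterByExpr (13608 genes kept) and scaled by TMM. A single quasi-likelihood model with group as term was fitted to the 9 libraries (glmQLFit, glmQLFTest). The two-sided p-values were adjusted after Benjamini-Hochberg across the tested genes of a comparison, with calls at 0.05. The fit was tested on simulated counts. CPM use the TMM factors. A fold against a group without counts is a lower bound against 3 counts over that group, and it covers counting error only. A gene without counts in WT passed the filter through mutant libraries alone and could only be called higher over WT. Intervals for log2 fold changes are 95% intervals.

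Named are the 10 genes, up to 3 called genes with the smallest p per list and comparison, and the 5 genes most like Atf4. Eif2ak4, Eif2b2, Eif2b5, Slc3a2, Slc7a1, Aars and Gars were named after their values were seen. One gene of a list is not reported here. Alternatives were RLE factors, no filter on low counts, DESeq2 1.42.0, limma-voom and limma 3.58.1 on the deposited levels, only the 2 groups compared, offsets for gene length or for length and GC content (known for 93.9% of tested genes), a replicate block, and leaving out libraries. Positions are 1-based on GRCm38. Promoters are from RefSeq, exons at the sites and overlaps from GENCODE. Figures were drawn with matplotlib 3.10.9.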

Additional observations from a re-analysis of the deposited data

Results flagged for a closer look

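Of the genes named, 5 had an effect relative to WT that differed between E12 and VF by edgeR's test of the difference itself, which in this fit is E12 against VF. In that comparison 3.21% of all tested genes were called. List genes were named mostly by their calls, those in this comparison included, and Eif2b1 by this comparison alone. The count of 5 is thus partly fixed by the naming and cannot be read against that share. For Mthfd2 the effect in E12 minus that in VF was 2.04 on the log2 scale, with E12 above WT and VF below WT, and every E12 library above every VF library. For Vldlr the difference was -2.29, with both groups above WT and every E12 library below every VF library. For Gcn1l1 it was 1.13, with E12 above WT, and VF above WT by 0.61 on the log2 scale in the fit without offsets and below it with length offsets (-0.39). For Eif2b1 and Eif2b3 it was 1.17 and 1.01, with both groups below WT. None of these calls held in every omission of a library. The calls of Vldlr, Gcn1l1, Eif2b1 and Eif2b3 ended without any single mutant library. That of Mthfd2 ended without VF 3 (adjusted p = 0.0588 by edgeR).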

How the results depend on the processing

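Directions over WT were stable for Atf4, Ddit3 and Asns in VF and for Trib3, Chac1, Ddit4, Sesn2 and Vldlr in both mutants, in every alternative that was run. Called genes among the 10 ranged from 5 to 7 in E12 over WT and from 8 to 10 in VF over WT when 1 library was left out, and from 0 to 4 in E12 over VF. Over all genes these ranges were 3612 to 7339, 4753 to 8382 and 19 to 3290. E12 over VF, with 437 genes called by edgeR, moved most. It had 1695 calls with DESeq2, 924 with limma-voom, 1784 on the deposited levels, 1061 with length offsets, 1089 with length and GC offsets, 6412 with the 2 groups alone and 2553 without WT 50 and E12 5. The 10 genes then had 4, 4, 4, 3, 3, 6 and 3 calls, and 0 without the filter on low counts. E12 over WT had 5717 calls, 3665 with length and GC offsets and 2967 with the 2 groups alone.

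The signs that turned, in E12 over WT, included those of Nupr1 (0.22 with limma-voom, 1.84 with length offsets, 2.11 with length and GC offsets, -1.42 to 0.73 over the omissions of 1 library with 0.73 without WT 50, 0.75 without WT 50 and E12 5), Atf4 (0.15 on the deposited levels, 0.43 and 0.51 with the offsets), Asns (0.31 on the deposited levels), Ddit3 (0.079 with length and GC offsets), Chac2 (0.066 with length offsets) and Cars (-0.26 with length offsets). In VF over WT they included those of Gcn1l1 (-0.39 with length offsets and -0.65 with length and GC offsets), Slc3a2 (0.17 on the deposited levels), Slc7a1 (-0.40 with length offsets), Nupr1 (-0.33 to 1.81, with -0.20 without WT 51 and -0.33 without WT 52) and Map1lc3b (0.46 on the deposited levels, 0.029 with length and GC offsets). In E12 over VF they included those of Ddit4 (0.54 on the deposited levels, -0.20 to 0.051 over the omissions with 0.051 without VF 2), Chac1 (-2.40 to 0.62, with 0.62 without VF 1, 0.50 without E12 1, 0.38 without E12 2), Slc38a2 (0.014 with length offsets) and Atf5 (-0.038 to 0.25, with -0.038 without E12 5). The cause was not tested. Chac1 was not tested in E12 over WT with the 2 groups alone, where it failed the filter.

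E12 and VF share the replicate numbers 1 and 2, and deviations of same-numbered libraries correlated at 0.00975 and 0.103. Those of libraries with unlike numbers correlated at -0.198 to 0.227. With so few pairs these values cannot decide whether the numbers pair the libraries. A replicate block on those 4 libraries gave 5433 calls over all genes and 5 among the 10, and Atf5 turned to -0.095.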
